A study of Homo sapiens with 8 samples.

Results

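YAP1, WWTR1 and the genes around them were followed in stretched A549 cells that did or did not stain for β-galactosidase. The set holds 10 genes, chosen by name and with earlier results of these data known. It includes YAP1 and WWTR1, which encode the coactivators YAP and TAZ, their DNA-binding partner TEAD1 and the competing cofactor VGLL4. The others are the kinase LATS2 and the target genes CTGF, CYR61, AMOTL2, ARHGEF17 and MYOF. Of the 10 genes, 9 were found among the 13841 rows of the count table, CTGF (now CCN2) and CYR61 (now CCN1) under their older symbols. LATS2 was not analysed here. All 9 passed the filter on low counts, with 40 to 8226 counts per library.

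A549 is an established cell line, derived from a human lung adenocarcinoma and often used to stand for alveolar epithelium. All cells, in both groups, had been stretched cyclically for 24 h (15% elongation, 15 cycles per min) and kept in culture for 6 days, and were then sorted by β-galactosidase activity, which is raised in many senescent cells. The 4 libraries of positive cells, labelled Senescent, carry the numbers 1, 3, 4 and 5, and the 4 of negative cells, labelled Non_senescent, the numbers 2, 6, 7 and 8. Unstretched cells were not analysed here, so the comparison sets stained against unstained cells after stretch and not stretch against rest, and no source used here says that the libraries came from separate cultures. The p-values therefore rest on the spread among these 8 libraries alone, and that spread may be technical in part.

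YAP and TAZ have no DNA-binding domain of their own and act on genes by binding TEAD factors. The Hippo kinases, ending in LATS1 and LATS2, phosphorylate YAP and TAZ and keep them in the cytoplasm, and stretch, a stiff surface or cell spreading lets them enter the nucleus. Because this control acts on the proteins, the transcript levels of YAP1 and WWTR1 do not measure their activity, which is usually read from target genes such as CTGF and CYR61. In mouse lung, YAP and TAZ take part in the regeneration of the alveolar epithelium after injury.

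TEAD factors bind a short sequence, GGAATG (reverse complement CATTCC). RefSeq promoters (GRCh38.p14) were matched for 7 of the 10 genes, and the 250 bases before each start site were searched on both strands. No promoter was matched for TEAD1, CYR61 and ARHGEF17, so these 3 genes were not searched for either motif below. The promoter of CTGF, the most used readout of YAP and TAZ, is shown because it holds 3 copies, written in capitals, beginning 169, 104 and 95 bases before the start site. It lies on the minus strand at chr6:131951373-131951622.
CTGF: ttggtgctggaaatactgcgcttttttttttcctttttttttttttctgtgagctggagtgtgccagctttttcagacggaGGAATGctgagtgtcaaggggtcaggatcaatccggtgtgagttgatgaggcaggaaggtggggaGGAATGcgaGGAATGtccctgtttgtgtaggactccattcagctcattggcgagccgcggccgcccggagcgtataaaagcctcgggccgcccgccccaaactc

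Among 35116 promoter windows of that length in the RefSeq table, 11.9% held the motif at least once and 0.0826% held it 3 or more times. The motif also stood once before the start site of YAP1 itself, 162 bases upstream on the plus strand (chr11:102110273-102110302). Before 1 of the 2 start sites of AMOTL2 it stood once, 69 bases upstream on the minus strand (chr3:134374499-134374528). That stretch lies inside the AMOTL2 gene as GENCODE places it. These matches are shown with 12 bases on either side, the motif in capitals.
YAP1: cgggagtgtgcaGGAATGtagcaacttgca
AMOTL2: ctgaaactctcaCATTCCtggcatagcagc

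MYOF is shown beside them because its values differed between the groups without overlap. The 250 bases before its start site, on the minus strand at chr10:93482335-93482584, hold no match to the letters searched, which says nothing about binding elsewhere.
MYOF: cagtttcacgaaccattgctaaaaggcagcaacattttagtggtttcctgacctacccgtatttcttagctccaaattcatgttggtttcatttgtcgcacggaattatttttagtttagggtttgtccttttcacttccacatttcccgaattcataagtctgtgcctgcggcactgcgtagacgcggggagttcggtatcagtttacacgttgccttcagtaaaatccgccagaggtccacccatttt

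The AP-1 motif TGANTCA, searched because AP-1 factors often bind near TEAD factors, was absent from these windows and present in 6.57% of all promoter windows. Windows of WWTR1 and VGLL4 held neither motif.

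Total counts per library ranged from 5634961 in positive 1 to 7990839 in negative 2. Levels are given as CPM, counts scaled to a common library total with TMM factors, and since an amplicon kit measures a short stretch of each transcript, CPM values were compared between libraries and never between genes. The epithelial markers EPCAM, KRT7, KRT8, KRT18, KRT19 and CDH1 were all present, summing to 2530.0 to 2992 CPM in positive and 2760.1 to 3562 CPM in negative libraries. Of 7 fibroblast markers 5 had a row and summed to 11.1 to 14.3 CPM in positive and 8.72 to 13.0 CPM in negative libraries. Of 5 leukocyte markers the 3 with a row (CD68, LYZ and CD14) summed to 70.2 to 75.1 CPM in positive and 57.0 to 75.5 CPM in negative libraries, and the 1 endothelial marker with a row, CDH5, to at most 1.18 and 0.998 CPM. Positive 1 and negative 2 stood apart from the rest, and their part in the results below was not tested beyond leaving them out. Positive 1 held the highest of the 8 values for 23.9% of all tested genes and the lowest for 23.9%, and negative 2 held the highest for 29.4% and the lowest for 26.2%. These libraries also had the lowest and the highest total, and the highest (1.07) and the lowest (0.862) TMM factor.

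No gene of the set passed the threshold. With edgeR's quasi-likelihood test, fitted to all 11351 genes that passed the filter and adjusted by the Benjamini-Hochberg method, 0 genes of the set and 0 genes of the table (0%) had an adjusted p under 0.05, with adjusted p between 0.309 and 0.937 in the set. At an unadjusted p under 0.05, 1 gene of the set was higher in positive cells (ARHGEF17) and 1 lower (MYOF), where 7.52% and 6.85% of all tested genes were, or 14.4% in both directions. ARHGEF17 and MYOF were also the 2 genes of 9 whose groups did not overlap, against 9.14% of all tested genes. These counts are small and the set was chosen with earlier results known, so nothing is read from them about the set as a whole. DESeq2 and limma voom likewise called none of the 9, although DESeq2 called 52 genes of the table (0.458%) and limma voom 0 (0%).

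**Figure D1:**
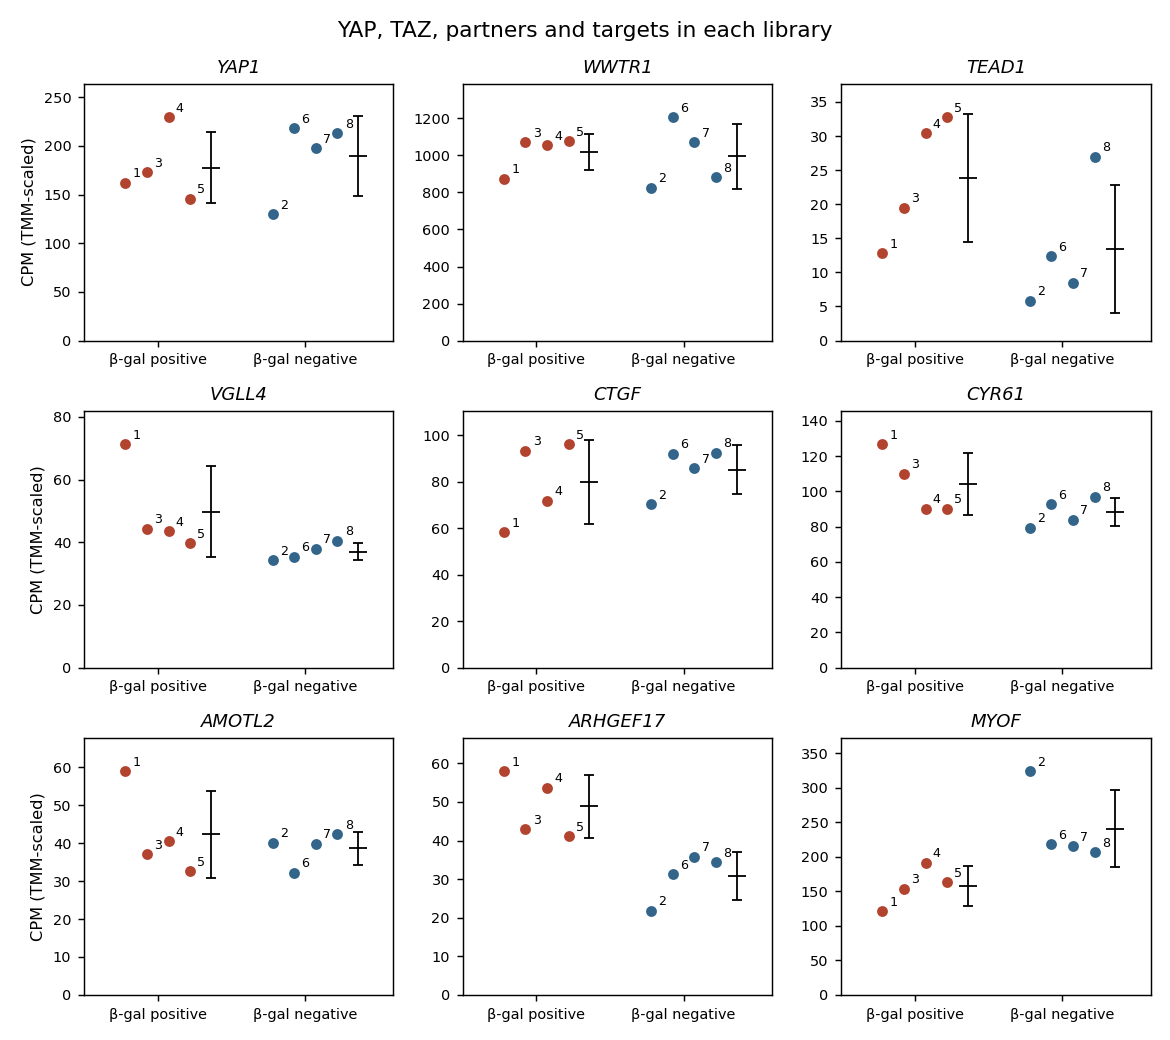
Level of each of the 9 genes in CPM (vertical axis, linear, from 0) in the 4 positive and 4 negative libraries, each point marked with its library number; the black bar shows the mean ± SD of the group. The groups are parted for ARHGEF17 (positive above) and MYOF (positive below) and overlap for the other 7.

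Neither coactivator transcript differed beyond the spread between libraries. YAP1 stood at 162, 173, 229.6 and 146 CPM in positive 1, 3, 4 and 5, against 129.9, 218, 198 and 213 CPM in negative 2, 6, 7 and 8. The highest value, in positive 4, and the lowest, in negative 2, are far apart, and the other 3 positive values lie within the range of the negative ones. The log2 fold change of YAP1 (positive over negative) was -0.09 ± 0.21 (SE; 95% interval -0.55 to 0.36; edgeR adjusted p = 0.839). As a fold, the interval runs from 0.685 to 1.28. YAP1 lies on chromosome 11 at 102110461 to 102233423 (GRCh38, GENCODE 29), and like the other genes of the set it is protein-coding.

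WWTR1, on chromosome 3 at 149517235 to 149736714, varied least within groups among the 4 regulators measured (SD of 0.21 on the log2-CPM scale). It stood at 875, 1071, 1054 and 1078 CPM in the positive libraries in the order above, against 826, 1207, 1071 and 882 CPM in the negative ones. The log2 fold change was 0.03 ± 0.17 (SE; 95% interval -0.34 to 0.41; edgeR adjusted p = 0.937), or a fold between 0.788 and 1.33. Positive 3, 4 and 5 lay close together and positive 1 below them, within the range of the negative libraries. The ratio of WWTR1 to YAP1 counts within a library, which no scaling can alter, averaged 5.90 ± 1.20 (SD) over the 4 positive libraries and 5.36 ± 0.916 over the 4 negative ones. It ranged from 4.59 in positive 4 to 7.40 in positive 5 and from 4.14 in negative 8 to 6.36 in negative 2, so it overlapped between groups. The ratio compares amplicon counts and is not a ratio of transcripts.

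Profiles over the 8 libraries were compared by the root mean square difference of log2-CPM values centred on each gene's mean, among 7945 genes with a mean of at least 10 CPM. The genes nearest to YAP1 were RFX3 (0.058), MRAP2 (0.088) and TPRA1 (0.088), and those nearest to WWTR1 were DHRSX (0.053), COPE (0.059) and SLC35E2B (0.065), the last of which has a near-identical copy that may share reads. WWTR1 was 0.25 from YAP1, at rank 758 of those genes, and CTGF was 0.20 from WWTR1, at rank 646. TEAD1 was the farthest of the set from both, at 0.78 from YAP1 and 0.80 from WWTR1. With 8 libraries such likeness describes these samples alone.

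TEAD1, which carries YAP and TAZ to DNA, varied more between libraries than any other gene of the set. It stood at 12.8, 19.5, 30.4 and 32.8 CPM in positive 1, 3, 4 and 5, against 5.82, 12.4, 8.49 and 27.0 CPM in negative 2, 6, 7 and 8. Negative 8 lay among the higher positive libraries, while the other 3 negative libraries lay below every positive one. Its log2 fold change was 0.83 ± 0.43 (SE; 95% interval -0.10 to 1.76; edgeR adjusted p = 0.379). Without negative 8 it was 1.45 (edgeR adjusted p = 0.229), and without negative 2 it was 0.60. The spread of TEAD1 within groups, an SD of 0.78 on the log2-CPM scale, was larger than that of 95.3% of the tested genes, whereas 8 of the 9 genes varied less than the median tested gene, whose SD was 0.34. TEAD1 lies on chromosome 11 at 12674591 to 12944483.

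The other TEAD genes, which encode the paralogous DNA-binding partners, were on smaller counts or did not differ. TEAD2 stood at 11.4 ± 4.26 CPM in positive and 8.02 ± 0.898 CPM in negative cells (SD, n = 4 each). Its log2 fold change was 0.50 (95% interval -0.11 to 1.10), with 0.25 without positive 1 and 0.66 without positive 5. TEAD3 stood at 7.77 ± 0.532 CPM in positive and 6.09 ± 0.731 CPM in negative cells (SD, n = 4 each), and each of its positive values, from 7.19 to 8.39 CPM, lay above each negative value, from 5.38 to 7.11 CPM. Its log2 fold change was 0.35 with a 95% interval of -0.13 to 0.84, on 37 to 63 counts per library. TEAD4 stood at 90.0 ± 19.0 CPM in positive and 90.5 ± 5.80 CPM in negative cells (SD, n = 4 each). Its log2 fold change of -0.01 (-0.40 to 0.38) changed sign with the scaling. The reads of these paralogs were counted by the authors' own method, and whether any were divided between them was not tested.

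VGLL4, which competes with YAP and TAZ for TEAD factors, stood at 71.2, 44.3, 43.4 and 39.7 CPM in positive 1, 3, 4 and 5, against 34.3, 35.4, 38.0 and 40.5 CPM in negative 2, 6, 7 and 8. The groups overlap only through positive 5 and negative 8, and positive 1 stands far above the rest. For VGLL4 the log2 fold change was 0.42 ± 0.21 (SE; 95% interval -0.03 to 0.87; edgeR adjusted p = 0.366), and 0.20 without positive 1 (edgeR adjusted p = 0.619). VGLL3, another cofactor of TEAD factors, was at 0.12 (-0.44 to 0.68). VGLL4 lies on chromosome 3 at 11556070 to 11771350. Of the 6 tested genes for TEAD and VGLL proteins, 5 had a log2 fold change above 0 and 1 below, with a median of 0.39 beside -0.02 over all tested genes, and 0 had an unadjusted p under 0.05, where 14.4% of all tested genes did.

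CTGF and CYR61 encode secreted matricellular proteins and are the targets most often read as YAP and TAZ activity. CTGF stood at 58.4, 93.3, 71.8 and 96.1 CPM in positive 1, 3, 4 and 5, against 70.2, 92.1, 85.8 and 92.5 CPM in negative 2, 6, 7 and 8. Both groups covered much the same range, with positive 1 lowest. As a fold the 95% interval of CTGF ran from 0.703 to 1.25 (edgeR adjusted p = 0.832). CTGF lies on chromosome 6 at 131948176 to 131951373.

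CYR61 stood at 127, 110.0, 90.2 and 90.2 CPM in the positive libraries in the same order, against 79.2, 92.7, 84.0 and 97.0 CPM in the negative ones. Positive 1 and 3 were above every negative library and positive 4 and 5 among them. CYR61 had a log2 fold change of 0.24 ± 0.17 (SE; 95% interval -0.13 to 0.61; edgeR adjusted p = 0.497), and 0.13 without positive 1. The ratio of CYR61 to CTGF counts was 2.17 in positive 1 and between 0.939 and 1.26 in the other 7 libraries, so these 2 targets parted in a single library. CYR61 lies on chromosome 1 at 85580761 to 85583962.

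AMOTL2, an angiomotin-family scaffold that binds YAP and is itself a target, stood at 58.9, 37.1, 40.5 and 32.6 CPM in positive 1, 3, 4 and 5, against 40.1, 32.2, 39.8 and 42.4 CPM in negative 2, 6, 7 and 8. Apart from positive 1 the groups cover the same range. Its log2 fold change was 0.13 ± 0.21 (SE; 95% interval -0.32 to 0.58; edgeR adjusted p = 0.774) and was -0.07 without positive 1. AMOTL2 lies on chromosome 3 at 134355874 to 134375479. AMOTL2, CYR61, VGLL4 and ARHGEF17 all had their highest value in positive 1, as had 23.9% of all tested genes. Of the 9 genes, 6 had their lowest value in negative 2, as had 26.2% of all tested genes.

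ARHGEF17, which encodes a guanine nucleotide exchange factor, stood at 57.9, 42.9, 53.7 and 41.2 CPM in positive 1, 3, 4 and 5, against 21.8, 31.3, 35.8 and 34.4 CPM in negative 2, 6, 7 and 8. Every positive library was above every negative one. The means were 48.9 ± 8.17 CPM in positive and 30.8 ± 6.30 CPM in negative cells (SD, n = 4 each). This gave a log2 fold change of 0.66 ± 0.21 (SE; 95% interval 0.22 to 1.11), with an unadjusted p of 0.00693 in edgeR that did not pass adjustment over all genes (adjusted p = 0.309). The estimate stayed between 0.54 and 0.75 with any 1 library left out, and was 0.46 without both positive 1 and negative 2 (edgeR adjusted p = 0.417). Relative to YAP1 in the same library, ARHGEF17 counts were 0.280 ± 0.0551 (SD) over the 4 positive libraries and 0.163 ± 0.0156 over the 4 negative ones. The groups again did not overlap, but the ratio reuses the same ARHGEF17 counts and is no separate support. For VGLL4 the ratio to YAP1 counts did overlap, at 0.189 in positive 4 and 0.264 in negative 2. ARHGEF17 lies on chromosome 11 at 73308289 to 73369388.

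MYOF, which encodes myoferlin, a membrane protein of vesicle fusion and membrane repair, went the other way. It stood at 121, 154, 192 and 164 CPM in positive 1, 3, 4 and 5, against 324, 218, 216 and 207 CPM in negative 2, 6, 7 and 8. Every positive library was below every negative one, and negative 2 stands far above the other negative libraries. The means were 158 ± 29.1 CPM in positive and 241 ± 55.4 CPM in negative cells (SD, n = 4 each). The log2 fold change was -0.61 ± 0.20 (SE; 95% interval -1.05 to -0.17), with an unadjusted p of 0.00992 in edgeR and an adjusted p of 0.309. It was -0.42 without negative 2 (edgeR adjusted p = 0.485), -0.51 without positive 1 and -0.31 without both of these libraries (adjusted p = 0.479). MYOF lies on chromosome 10 at 93306429 to 93482317.

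**Figure D2:**
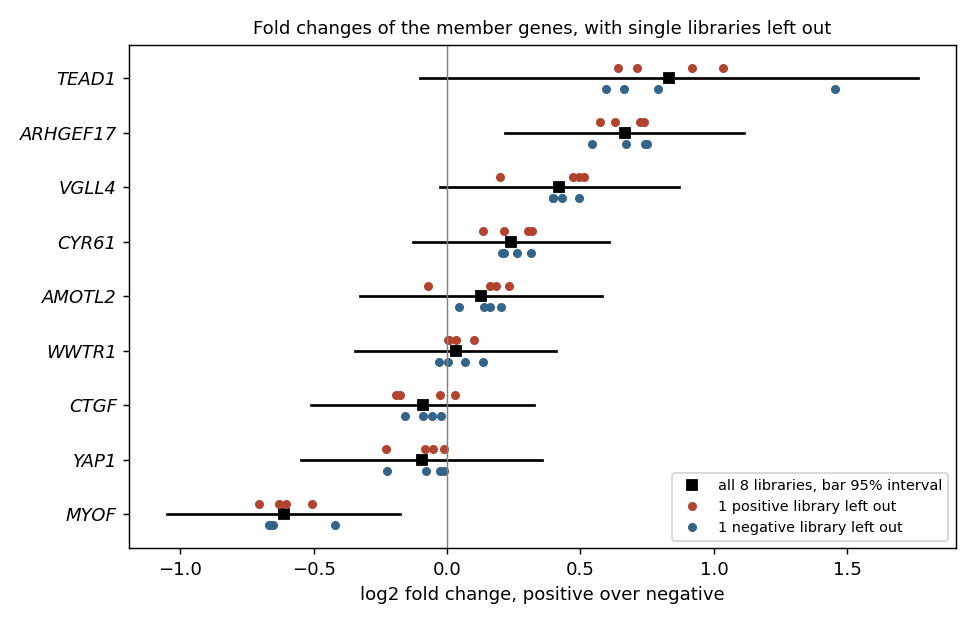
Log2 fold change of each of the 9 genes, positive over negative (horizontal axis), with all 8 libraries (square, with its 95% interval) and with 1 positive (red) or 1 negative (blue) library left out. The interval leaves out 0 for ARHGEF17 and MYOF, and the estimate for TEAD1 reaches 1.45 without negative 8.

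A published signature of 22 YAP and TAZ targets, which contains 6 of the 10 genes of the set, gave no common direction. Of the 22 genes, 20 had a row and 18 were tested; LATS2 and CRIM1 were not analysed here, and ANKRD1 (0 to 21 counts per library) and CCDC80 (5 to 16) did not pass the filter. Of the 18, 7 had a log2 fold change above 0 and 11 below, with a median of -0.15 beside -0.02 over all tested genes. Only ARHGEF17 (higher) and MYOF (lower) had an unadjusted p under 0.05, where 14.4% of all tested genes did, and none passed adjustment. Of the 13 tested targets outside the set, 4 were above 0 and 9 below, with a median of -0.22 and a range from -0.60 to 0.20, the smallest unadjusted p being 0.0863.

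The remaining targets of smallest p all had lower means in positive cells but overlapped between groups. PTPN14, a phosphatase that restrains YAP, stood at 15.2, 15.5, 13.1 and 15.2 CPM in positive 1, 3, 4 and 5, against 28.2, 11.8, 19.8 and 21.5 CPM in negative 2, 6, 7 and 8. AXL, a receptor tyrosine kinase, stood at 42.0, 39.3, 41.3 and 42.6 CPM in the same positive libraries, against 76.3, 29.3, 60.7 and 56.2 CPM in the negative ones. For both genes the positive libraries were tightly grouped, negative 6 was the lowest of all and the other negative libraries lay above every positive one. PTPN14 had a log2 fold change of -0.47 (95% interval -1.01 to 0.08) and AXL one of -0.43 (-0.96 to 0.10). F3, which encodes tissue factor, was at -0.60 (-1.40 to 0.20) on 8 to 24 counts per library, and TGFB2, a growth factor of the TGF-beta family, had means of 110.0 ± 12.2 CPM in positive and 132 ± 15.6 CPM in negative cells (SD, n = 4 each). Without negative 6, 5 of the targets had an unadjusted p under 0.05, with PTPN14 at -0.66, AXL at -0.64 and F3 at -0.80 added to ARHGEF17 and MYOF, none of them at an edgeR adjusted p under 0.283. Without negative 2, the highest library for all 3 of these genes, PTPN14 was at -0.25, AXL at -0.22 and F3 at -0.39, and none of them had an unadjusted p under 0.05. Without negative 8 there were 4, with FOXF2 at -0.52 and DOCK5 at -0.46 added. Over the whole table the fits without negative 6 and without negative 8 put 15.5% and 17.2% of genes at such a p.

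**Figure D3:**
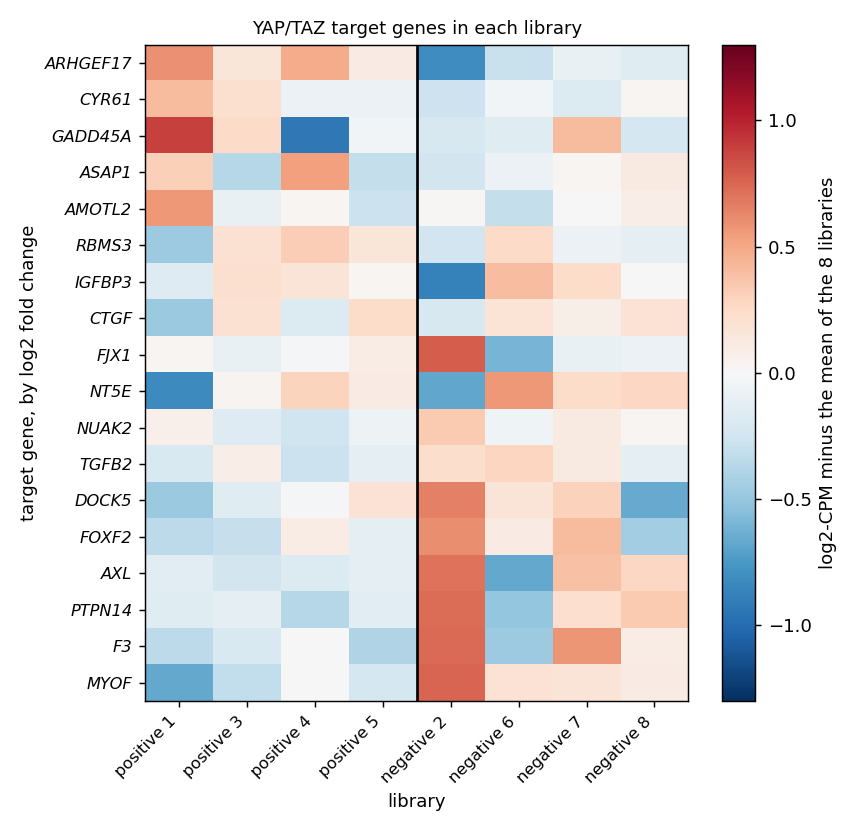
Each of the 18 tested targets (rows, ordered by log2 fold change) in each library (columns, positive left of the line and negative right of it), as log2-CPM minus the mean of the 8 libraries. Negative 2 is the highest library for 8 of the 18 targets and for 29.4% of all tested genes, and AXL, PTPN14 and F3 are low in negative 6.

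Of the 18 targets, negative 2 held the highest value for 8 and the lowest for 3, against 29.4% and 26.2% of all tested genes. Positive 1 held the highest for 4 and the lowest for 4, against 23.9% and 23.9% of all tested genes. ARHGEF17 and IGFBP3 were lowest in negative 2, where MYOF, AXL, PTPN14 and F3 were highest, so the targets did not shift together in that library.

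Genes of the Hippo kinase core, which restrains YAP and TAZ, had 4 log2 fold changes above 0 and 10 below among 14 tested members, with a median of -0.18 beside -0.02 over all tested genes. Only TAOK3 had an unadjusted p under 0.05, and it was lower, where 6.85% of all tested genes were lower at such a p. TAOK3, a kinase that can activate the core, stood at 30.0, 43.6, 35.3 and 43.6 CPM in positive 1, 3, 4 and 5, against 48.6, 56.4, 66.1 and 47.8 CPM in negative 2, 6, 7 and 8. Every positive library of TAOK3 was below every negative one, with a log2 fold change of -0.52 (95% interval -0.93 to -0.11; edgeR adjusted p = 0.312). TAOK3 was at -0.59 without positive 3 and at -0.42 without negative 7, where its unadjusted p in edgeR was 0.0675. MAP4K4 (-0.85), MAP4K2 (-0.41) and the LATS activator MOB1A (-0.38) had intervals that spanned 0. MOB1A was at -0.21 without negative 2, at -0.24 without positive 1, at -0.070 without both and at -0.46 without positive 3. MAP4K4, on 10 to 71 counts per library, was at -0.55 without negative 7 and at -1.10 without negative 6. The 95% interval of LATS1, one of the kinases that phosphorylate YAP and TAZ directly, was -0.47 to 0.35. MAP4K1 had 1 to 10 counts and was not tested. Of the 17 genes listed for the core, LATS2 and MAP4K3 were not analysed here, so the counts above do not cover the whole core.

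Among 19 tested scaffolds and upstream genes, 9 log2 fold changes were above 0 and 10 below, with a median of -0.0038, beside -0.02 over all tested genes. Of the 19, 1 higher and 3 lower genes had an unadjusted p under 0.05, against 7.52% and 6.85% of all tested genes. TJP1, which encodes the tight junction scaffold ZO-1, was at -0.53 (95% interval -0.99 to -0.06). TJP1 averaged 132 ± 36.4 CPM in positive and 189.8 ± 33.4 CPM in negative cells (SD, n = 4 each). Its log2 fold change was between -0.70 and -0.39 with single libraries left out, and -0.25 without both positive 1 and negative 2. BTRC, a ubiquitin ligase adaptor that marks phosphorylated YAP for degradation, was at -0.45 (-0.87 to -0.02), each positive value, from 11.0 to 12.9 CPM, lying below each negative value, from 14.8 to 19.8 CPM, and it was at -0.29 without both of those libraries. WWC2, a relative of the scaffold KIBRA, was at 0.44 (0.01 to 0.87), at 0.28 without positive 1 and at 0.56 without positive 5. None passed adjustment, the smallest edgeR adjusted p being 0.320 for TJP1. NF2, which encodes the scaffold merlin, was at -0.29 (-0.78 to 0.19), and AMOT had 4 to 12 counts and was not tested.

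The STRIPAK complex, a phosphatase complex that opposes the kinases upstream of LATS, had 5 log2 fold changes above 0 and 8 below among 13 tested members, with a median of -0.11 beside -0.02 over all tested genes. STRN3 alone had an unadjusted p under 0.05, and it was higher, where 7.52% of all tested genes were. STRN3, one of its regulatory subunits, stood at 246, 142, 154 and 153 CPM in positive 1, 3, 4 and 5, against 55.4, 116, 93.7 and 122 CPM in negative 2, 6, 7 and 8. Every positive library was above every negative one, with the extremes in positive 1 and negative 2. The log2 fold change of STRN3 was 0.84 ± 0.26 (SE; 95% interval 0.28 to 1.40; edgeR adjusted p = 0.309), and 0.46 without both of these libraries. Its paralog STRN had a log2 fold change of -0.47 (-1.04 to 0.10), with negative 2 at 26.3 CPM and the other 7 libraries between 9.51 and 14.6 CPM. STRN was at -0.16 without negative 2 and at -0.58 without negative 7. PPP2R1B (0.55) and PPP2CB (-0.36), a scaffold and a catalytic subunit of the phosphatase, had intervals that spanned 0. PPP2CB was at -0.23 when positive 1 was left out and -0.11 when negative 2 was left out as well. With positive 3 alone left out, PPP2CB was at -0.51.

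**Figure D4:**
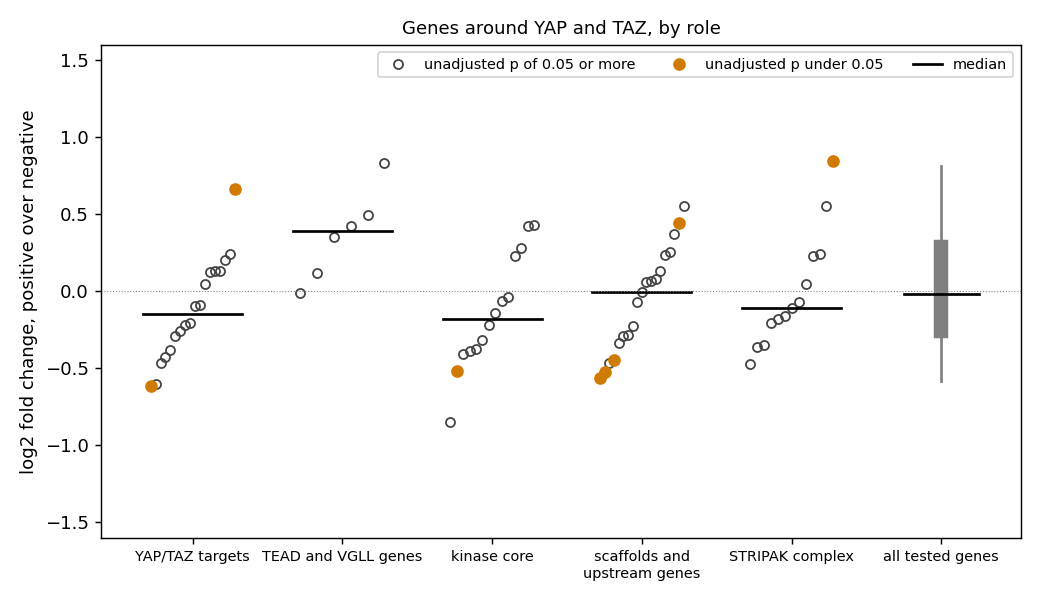
Log2 fold change (positive over negative) of each tested gene in 5 groups around YAP and TAZ, with the group's median as a line and genes of an unadjusted p under 0.05 filled. At the right, all tested genes are shown by their median of -0.02 (line), the range from the 25th to the 75th percentile (-0.26 to 0.29, thick bar) and from the 5th to the 95th (-0.58 to 0.82, thin bar).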

How the data were processed

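Per the labels' protocols, total RNA (Trizol) went into Ion Torrent libraries of a kit that amplifies a short stretch of each human transcript. The authors worked with Salmon 1.9, fastp 0.20.1 and build GRCh38, per the submitters' processing notes. The sources used here give neither the annotation nor how transcripts were summed to genes and rows filtered. The authors deposited estimated counts for each gene as whole numbers, with no scaling for depth, and rounding left them as they were.

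Of 13841 rows, 11351 passed filterByExpr (a minimum count of 10, a total of 15) and were tested with edgeR 4.0.16 (TMM scaling, robust quasi-likelihood test, R 4.3.3), positive over negative, with Benjamini-Hochberg adjustment over all tested genes and a threshold of 0.05. Log2-CPM values used a prior count of 2. Intervals reflect differences between libraries, and PCR copies could not be told apart. Every pair of libraries differed beyond sampling noise (chi-square per degree of freedom at least 8.44).

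Alternatives were other scalings, low-count filters, DESeq2 1.42.0, limma 3.58.1 voom with library weights, each library left out, and both positive 1 and negative 2 left out. The methods were also run on simulated counts in which no library stood apart, and the outcome is not reported here.

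The members and lists were chosen with earlier results of these data known. Named were all members, the 4 other genes of smallest p in each list, of which 1 is not reported here, and the 3 genes nearest in profile to YAP1 and to WWTR1. IGFBP3, FOXF2, DOCK5, LATS1 and NF2 were also named, chosen after their values were seen. ANKRD1, CCDC80, MAP4K1, AMOT and CRIM1 were named because they were not tested, and TBRG1 and CBWD5 because they were called with 1 library left out. Coordinates are from GENCODE 29 and promoters from RefSeq, both on GRCh38.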

Additional observations from a re-analysis of the deposited data

Results flagged for a closer look

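In 58 groups of 4 libraries (29 genes in positive and in negative cells), 8 held 1 library that stood apart from the rest by Dixon's test at its 95% critical value. That value gives about 1 of 20 for independent groups of normally distributed values. These groups share libraries, and many of the genes were named for a small p, so the 8 cannot be set against that rate. Of these, 6 fell on positive 1 or negative 2. Among genes of the set, WWTR1 was at 875 CPM in positive 1, against 1054 to 1078 CPM in the other positive libraries, VGLL4 at 71.2 CPM in positive 1, against 39.7 to 44.3 CPM, and MYOF at 324 CPM in negative 2, against 207 to 218 CPM in the other negative libraries. Among other genes, STRN3 was at 246 CPM in positive 1, against 142 to 154 CPM, MOB1A at 113 CPM in negative 2, against 74.9 to 80.7 CPM, and STRN at 26.3 CPM in negative 2, against 13.1 to 14.6 CPM. VGLL3 was at 26.2 CPM in positive 4, against 17.2 to 18.4 CPM, and PTPN14 at 13.1 CPM in positive 4, against 15.2 to 15.5 CPM. Why these libraries stand apart was not tested.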

How the results depend on the processing

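ARHGEF17, MYOF, TEAD1, VGLL4 and CYR61 kept their sign under all 16 alternatives, and none of the 9 genes passed an adjusted p of 0.05 under any. ARHGEF17 had an unadjusted p under 0.05 under all 16, as had MYOF, while TEAD1 had one under 3 and VGLL4 under 4. Over the whole table, 9.7% to 17.2% of genes had such a p, depending on the alternative. All 16 reuse the same libraries and are not independent tests. Estimates near 0 turned. Scaled by library totals alone, YAP1 was at 0.00019 and CTGF at 0.014, while the median of all tested genes moved up by 0.12, so that both genes stayed below it. AMOTL2 was at -0.039 with limma voom and -0.035 without both positive 1 and negative 2. TEAD4 was at 0.056 with upper quartile scaling, 0.10 with totals alone and 0.040 with a minimum count of 50. With single libraries left out, log2 fold changes ranged from -0.19 to 0.032 for CTGF, -0.073 to 0.23 for AMOTL2, -0.031 to 0.13 for WWTR1, -0.12 to 0.089 for TEAD4 and -0.033 to 0.40 for VGLL3. The median of the targets, -0.15, was -0.040 with totals alone, -0.070 without both libraries and from -0.19 to -0.056 with single libraries left out. DESeq2 called 52 genes of the table where edgeR called 0, and leaving out single libraries gave 0 to 1, namely TBRG1 without negative 6 and CBWD5, which has near-identical paralogs, without negative 8. Targets at an unadjusted p under 0.05 numbered 2, and from 2 to 5 with single libraries left out. The cause of these shifts was not tested. No paired analysis was possible because each library number is used once. With 4 libraries a group, the median half-width of a 95% interval was 0.54 on the log2 scale. That width takes no account of the adjustment over all genes, so it is not a limit of detection. Larger estimates, such as STRN3 at 0.84 and ARHGEF17 at 0.66, also did not pass adjustment. Whether these reflect true differences cannot be told from these libraries, and true differences of that size could be missed.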
